A study of Mus musculus with 20 samples.

Results

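Mir302/Mir367 and Mir290 are microRNA clusters of pluripotent cells, and the accessible chromatin around 7 of their genes was followed here by ATAC-seq, which uses the transposase Tn5 to tag open DNA. The genes are Mir302b, Mir302c, Mir302a, Mir302d and Mir367, whose hairpins lie in 580 bp of chr3:127545228-127545807 in an intron of Larp7, and Mir294 and Mir295, whose hairpins lie at chr7:3220641-3220841 (mm10, all on the plus strand). The members are the 20 elements within 20 kb of these hairpins, of 335858 in the whole series. An element is a merged region in which peaks of any of the 20 libraries overlap by at least 1 bp, and it is named by the distance from the hairpins of its strongest ESC summit or, for 3 elements without an ESC peak, of its strongest summit in any library. The Mir302 window held 8 elements and the Mir294/Mir295 window 12. Both loci were chosen by their peaks in these same libraries, with more NanogN70 than Nanog days at the Mir302 cluster known beforehand, so the values are a description and none carries a test.

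The libraries came from mouse embryonic fibroblasts (MEFs, 1 library), from embryonic stem cells (ESCs, 3 libraries) and from MEFs transduced with retroviruses for Nanog+Oct4 or NanogN70+Oct4 and sampled 8 times between days 0 and 12 (1 library for each path and time). NanogN70, called NanogBiD in the study, is NANOG with the BRG1-binding N-terminus of SS18, a protein of the BAF remodeling complex, joined to its own N-terminus. All these fibroblasts came from E13.5 embryos of OG2 males, which carry an Oct4-GFP reporter, and 129S2/SvPasCrl females. Both paths received Oct4 and, by the study's general protocol, the same media, iCD3 from day 0 and then N2B27+2iL. The protocol places the switch after day 7 or at another planned time, and the methods do not give its day for these libraries. The ESCs, also of OG2 origin, grew without feeders in N2B27+2iL. For the ESC samples the title was followed, since their source label reads MEF. Whole transduced cultures were sampled, so fewer cells with an open element and a less open element in every cell cannot be told apart. No label says that the 3 ESC libraries came from separate cultures, so their spread may be technical.

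The 3 ESC libraries had a peak at Pou5f1, Sox2, Zfp42, Dppa5a and Tdgf1, markers of pluripotent cells, in 4 or 5 of 5 cases. The Nanog libraries had 2 or 3, and the NanogN70 libraries 2 or 3 up to day 10 and 5 on day 12. MEFs had 3 (Pou5f1, Sox2 and Tdgf1), so 2 or 3 is no more than the MEF count. At the fibroblast markers Col1a1, Col1a2, Thy1, Twist1 and Prrx1, MEFs and every ESC library had 5 of 5. Peaks at these genes thus separate the cell types weakly. The NanogN70 day 3 library stood apart. It had peaks at 5 of 5 T lymphocyte markers and 5 of 5 leukocyte markers, where the other time course libraries had 1 to 3 and 1 or 2, MEFs 2 and 3 and the ESC libraries 3 or 4 and 2 or 3, and its median pileup at the 14217 regions with a peak in every library was 60, against 16 to 41 in the other libraries. The main counts are therefore also given without day 3. The number of reads per library is unknown. Libraries held 44126 to 125467 peaks, and the lowest summit pileup (tags covering the summit) in a library was 3 to 5, so a missing peak says only that the site stayed under the peak caller's threshold. To set libraries side by side, each summit pileup was divided by the library's median over the 14217 shared regions (the relative pileup).

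MicroRNAs of both clusters are cut from a common primary transcript by DROSHA and DGCR8, exported by XPO5, cut again by DICER1 and loaded on an Argonaute protein, where bases 2 to 8 (the seed) pair with target messages. Most miRNAs of the Mir290 and Mir302 clusters share a seed family that is known to ease the G1/S transition and to promote mesenchymal to epithelial change and reprogramming of fibroblasts. Mir290 is the cluster of naive mouse ESCs, while Mir302 is known chiefly from epiblast and primed cells.

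Mature sequences are shown for each seed of the members, miR-302a-3p excepted. They are from RefSeq on GRCm38.p6, with the seed in capitals.
miR-302b-3p: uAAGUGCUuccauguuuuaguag
miR-302d-3p: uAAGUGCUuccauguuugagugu
miR-302c-3p: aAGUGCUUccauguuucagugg
miR-294-3p: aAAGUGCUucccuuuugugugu
miR-295-3p: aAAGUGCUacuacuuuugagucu
miR-367-3p: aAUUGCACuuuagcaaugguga
miR-302b-5p: aCUUUAACaugggaaugcuuucu
miR-302a-5p: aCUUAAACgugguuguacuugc
miR-367-5p: aCUGUUGCuaacaugcaacuc
miR-294-5p: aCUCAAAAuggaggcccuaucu
miR-295-5p: aCUCAAAUguggggcacacuuc
Bases 2 to 8 were AAGUGCU in miR-302b-3p, miR-302d-3p, miR-294-3p and miR-295-3p. In miR-302c-3p the listed sequence starts 1 base later in the same run, and its bases 2 to 8 read AGUGCUU. The miR-367-3p seed AUUGCAC is that of the Mir25 and Mir92 family. The 5p arms of Mir302b, Mir302c and Mir302d shared CUUUAAC, and miR-302a-5p had CUUAAAC. Each of miR-367-5p, miR-294-5p and miR-295-5p had a seed that no other member carried.

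The 200 bases around the ESC summits of 4 elements are given next because the results turn on them: the Mir302 element nearest the hairpins, the Mir294/Mir295 element of highest ESC pileup, and, chosen after their values were seen, the upstream Mir294/Mir295 elements with peaks on the most NanogN70 days and on none. They are plus strand sequence of GRCm38.p6, and capitals mark every OCT, SOX or NANOG word (spelled out further on).
Mir302, 435 bp upstream (chr3:127544693-127544892): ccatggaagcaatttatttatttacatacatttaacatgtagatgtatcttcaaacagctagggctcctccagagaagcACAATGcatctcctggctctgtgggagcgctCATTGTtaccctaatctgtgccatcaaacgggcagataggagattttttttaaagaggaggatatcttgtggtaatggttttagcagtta
Mir294/Mir295, 2910 bp upstream (chr7:3217631-3217830): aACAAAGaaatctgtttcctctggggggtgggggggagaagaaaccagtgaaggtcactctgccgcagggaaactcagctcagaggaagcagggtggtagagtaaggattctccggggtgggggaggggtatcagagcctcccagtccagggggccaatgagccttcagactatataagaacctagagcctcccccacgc
Mir294/Mir295, 14022 bp upstream (chr7:3206519-3206718): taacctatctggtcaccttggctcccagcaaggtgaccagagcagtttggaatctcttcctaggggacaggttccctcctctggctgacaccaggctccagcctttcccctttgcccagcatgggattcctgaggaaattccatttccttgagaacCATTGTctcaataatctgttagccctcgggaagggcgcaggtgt
Mir294/Mir295, 6879 bp upstream (chr7:3213662-3213861): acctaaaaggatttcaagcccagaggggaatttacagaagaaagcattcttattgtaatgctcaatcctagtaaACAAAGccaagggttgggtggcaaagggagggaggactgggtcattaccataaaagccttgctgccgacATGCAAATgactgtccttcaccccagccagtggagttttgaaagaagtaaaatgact

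Of the 20 elements, 11 were ESC-only, meaning a peak in at least 2 ESC libraries and none in MEFs (16.5% of all regions were), 4 of them in the Mir302 window and 7 in the Mir294/Mir295 window. Peaks in all 3 ESC libraries were found at 9 of the 11, and in the whole series 65.8% of the 55446 ESC-only regions had them. A peak in MEFs was found at 2 elements, and at 34% of all regions. They were the Larp7 and Zgrf1 promoter, 7584 bp downstream of Mir367, and a broad element 841 bp downstream of Mir295. The other 7 had a peak in a single ESC library (4 elements) or in time course libraries alone (3 elements). The clusters differed in where ESC signal lay. In the Mir302 window it was concentrated at the hairpins and the host promoter, while in the Mir294/Mir295 window 5 ESC-only elements with a relative pileup of 0.918 to 1.37 lay upstream.

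**Figure D1:**
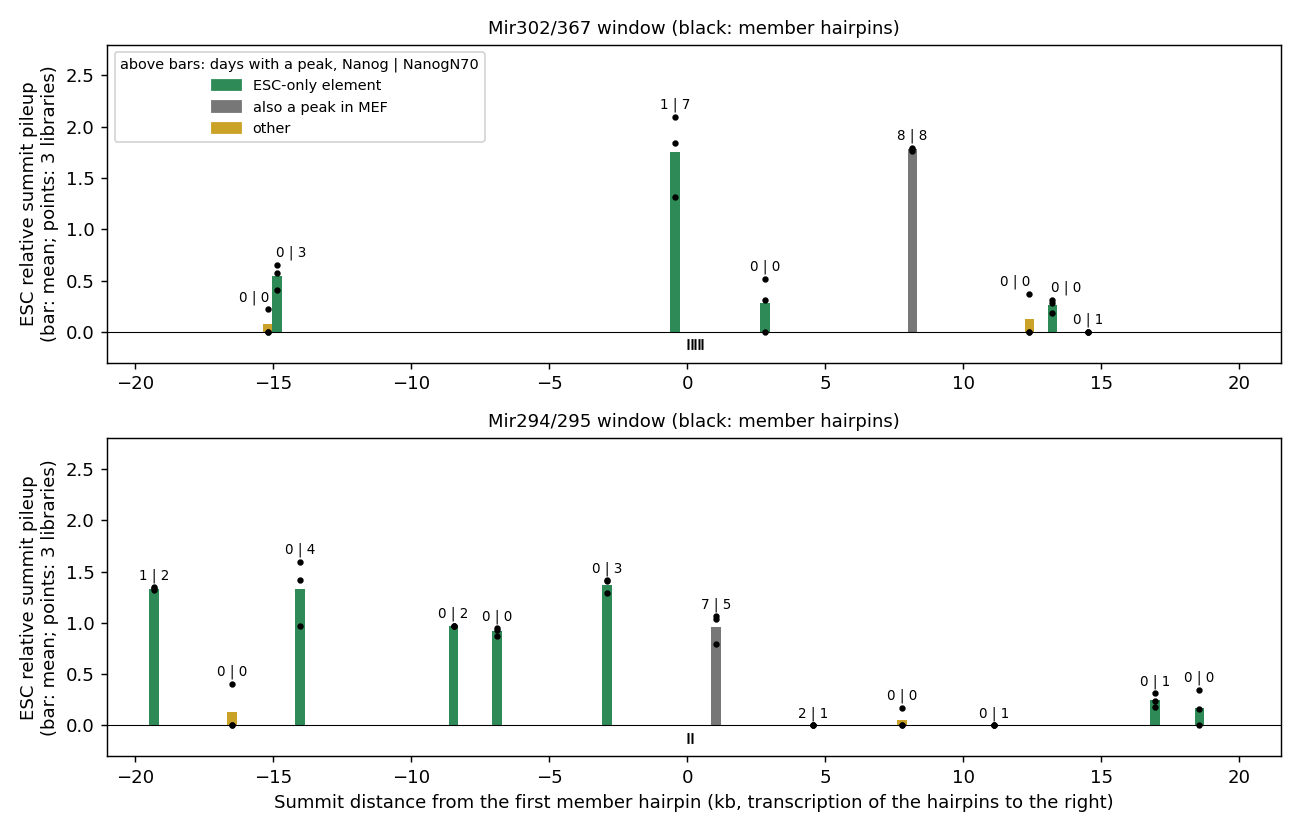
ESC relative summit pileup (bars, mean; points, the 3 ESC libraries) of the 8 Mir302/Mir367 and 12 Mir294/Mir295 elements against summit distance from the first member hairpin in kb, with the days with a peak on the Nanog and NanogN70 paths above each bar. The tallest ESC-only bar, 1.75, stands at the Mir302 hairpins with 1 Nanog and 7 NanogN70 days, and the upstream Mir294/Mir295 elements have 0 to 4 NanogN70 days and 0 or 1 Nanog days.

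The element nearest the Mir302 hairpins (chr3:127544563-127545201, 639 bp, summit 435 bp upstream of Mir302b in the Larp7 intron) was the earliest and longest-lasting ESC-only element of either window. It had no peak in MEFs or on day 0 of either path. With NanogN70 its summit pileup was 6 tags on day 1, 10 on day 3, 14 on day 5 and 28 on day 7, and then 16, 12 and 11 on days 8, 10 and 12. With Nanog it had a peak on day 7 alone, of 6 tags. The ESC libraries had 67, 70 and 38. Every NanogN70 library after day 0 thus had a peak, and all were below the lowest ESC library. How many other ESC-only regions have this order was not counted.

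Relative to the shared regions, the NanogN70 pileup was 0.375 on day 1, 0.167 on day 3, 0.609 on day 5 and 0.737 on day 7, and then 0.615, 0.429 and 0.268 on days 8, 10 and 12. The ESC mean was 1.75 ± 0.400 (SD, n = 3), and the Nanog day 7 value was 0.158. The relative pileup was thus highest on day 7 and lower on each later day sampled. Day 7, the highest day of the path, was 2.75 times day 12, from 28 and 11 tags in 1 library each (95% interval of the ratio 1.33 to 6.11, for counting error only and with the highest day picked). The day 3 library, with the lowest relative pileup of the path, had peaks at all listed T lymphocyte and leukocyte markers, and their part in its value was not tested.

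The peak caller's scores (-10 times log10 of p, at least 50 in the files) were likewise highest on day 7. They were 105 and 117 on days 1 and 3, 257 on day 5, 513 on day 7, and 349, 220 and 163 on days 8, 10 and 12 with NanogN70. The Nanog day 7 peak scored 106 and the ESC peaks 1320, 1375 and 1153. The NanogN70 day 7 peak was also the longest of its path, 568 bp against 125 to 460 bp on the other days, and the ESC peaks spanned 528 to 604 bp. Summits kept their place. Those of NanogN70 lay 8 bp before to 30 bp after the strongest ESC summit, the Nanog summit 38 bp after it, and the other ESC summits at most 4 bp before it.

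The paths had equal medians at the shared regions on days 1 (16 in both libraries) and 7 (38 in both). On day 1 the element had 6 tags with NanogN70 and no peak with Nanog. On day 7 it had 28 tags with NanogN70 (95% exact Poisson interval 18.6 to 40.5) and 6 with Nanog (2.20 to 13.1). The intervals cover counting error in these 2 libraries only, at an element chosen for its difference. On the days with no Nanog peak, the NanogN70 relative pileup carried over to the Nanog library would give 6 tags on day 1, 3.83 on day 3 and 17.0 on day 5, and 19.7, 9.86 and 6.44 tags on days 8, 10 and 12. A peak of that height would stand above 82.4% of the Nanog peaks of day 5, 81.0% of day 8 and 55.6% of day 10. It would stand above 27.3% on both days 1 and 12, and on day 3 it would lie below the lowest Nanog pileup of 4. The missing peaks of days 5, 8 and 10 thus lay within the range the Nanog libraries could show. The day 3 value comes from the NanogN70 library that stood apart, so the missing Nanog peak of that day cannot be judged by it.

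**Figure D2:**
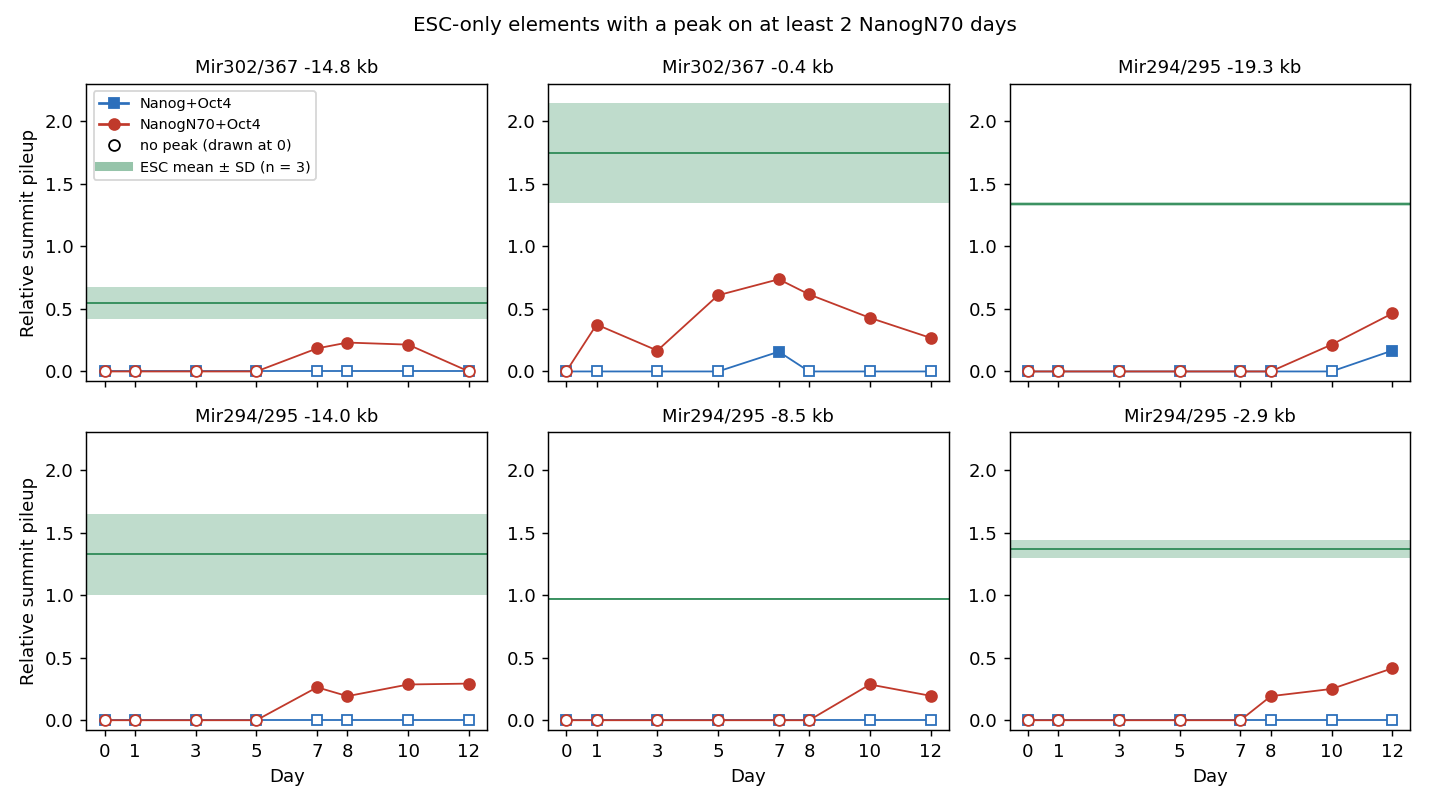
Relative summit pileup by day at the 6 ESC-only elements with a peak on at least 2 NanogN70 days, for Nanog+Oct4 (blue squares) and NanogN70+Oct4 (red circles), with open symbols drawn at 0 for libraries without a peak and the ESC mean ± SD (n = 3) as a green band. At the Mir302 hairpins NanogN70 rose to 0.737 on day 7 and was 0.268 on day 12, while at the Mir294/Mir295 elements 19317 and 2910 bp upstream its highest values, 0.463 and 0.415, came on day 12.

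Peaks on at least 7 NanogN70 and at most 1 Nanog days were found at 1 of the 11 ESC-only elements, this one, and at 0.142% of all ESC-only regions (79 of 55446). Among the 2132 ESC-only regions with an ESC mean relative pileup of at least 0.9, a limit chosen after the data were examined, the share was 0.704%. The locus was chosen for this pattern, so the shares only place it. Without day 3 the element had 6 NanogN70 days and 1 Nanog day, and at least 6 and at most 1 were found at 0.207% of all ESC-only regions and 0.938% of the strong ones. In the ESCs its mean relative pileup was higher than that of 99.6% of the 36490 ESC-only regions with a peak in all 3 ESC libraries.

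The Larp7 and Zgrf1 promoter gave a reference within the Mir302 window. Larp7, which encodes a protein that binds and stabilises the 7SK RNA, hosts the Mir302 cluster on the opposite strand, and Zgrf1, a helicase gene, starts next to it and runs the other way. This element (chr3:127552772-127553651) had a peak in all 20 libraries, with a relative pileup of 1.78 ± 0.015 (SD, n = 3) in ESCs and of 2.38 to 4.61 in the other 17 libraries, which did not overlap the ESC values. The hairpin element reached 118%, 104% and 73.1% of the promoter pileup in the 3 ESC libraries. In NanogN70 it reached 10.9% on day 1, 6.29% on day 3, 16.1% on day 5 and 21.2% on day 7, and 22.2%, 12.1% and 7.14% on days 8, 10 and 12. The Nanog peak of day 7 reached 3.97%. On this scale, which needs no estimate of depth, days 7 and 8 were again the highest of the NanogN70 path. The promoter itself was lower in ESCs on the relative scale, which raises the ESC percentages.

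The summit within this promoter also moved. In the 3 ESC libraries it lay 42 to 58 bp upstream of the Larp7 start and 82 to 98 bp upstream of the Zgrf1 start, between both genes. In MEFs and all 16 time course libraries it lay 324 to 350 bp inside Larp7. These are the highest summits of each library. The Nanog day 12 library alone had a second peak in the element, of 48 tags with its summit 73 bp on the Larp7 side of the strongest ESC summit, beside 74 tags at the position of the other time course libraries.

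The remaining Mir302 elements were weaker. The element 14848 bp upstream was ESC-only, with 13, 22 and 19 tags in the ESC libraries, and had a NanogN70 peak on days 7, 8 and 10, of 7, 6 and 6 tags, and none with Nanog. Its relative pileup was 0.547 ± 0.128 (SD, n = 3) in ESCs and 0.184 to 0.231 in NanogN70. Equal relative pileup would have given 7 tags in the Nanog library of day 7, 7.38 on day 8 and 4.93 on day 10, above 26.7%, 38.0% and 4.06% of the peaks of those libraries. The ESC-only elements 2245 and 12656 bp downstream, with 12 and 15 tags in 2 ESC libraries and 7 to 9 tags in 3, had no peak on any day. The elements 15175 bp upstream and 11823 bp downstream had a peak in 1 ESC library each, and the element 13956 bp downstream had a peak of 5 tags on NanogN70 day 1 alone.

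In the Mir294/Mir295 window the hairpins themselves lie in an exon of Nlrp12, an innate immune receptor gene on the opposite strand, and the rest of the Mir290 cluster lies just upstream of them. The element 2910 bp upstream of Mir294 (chr7:3217485-3217937) is intergenic, with its summit 895 bp upstream of Mir290a, the first hairpin of the cluster. Its ESC pileups were 45, 49 and 41 tags, the highest mean relative pileup of the window at 1.37 ± 0.070 (SD, n = 3). With NanogN70 it had 5, 7 and 17 tags on days 8, 10 and 12, a relative pileup of 0.192, 0.250 and 0.415. With Nanog, in MEFs and on the earlier NanogN70 days it had no peak. The first called NanogN70 peak was thus on day 8, and lower levels on earlier days cannot be told from none. The values were higher on each later day sampled. Day 12 was 2.16 times day 8 in relative pileup, from 17 tags (95% exact Poisson interval 9.90 to 27.2, counting error only) and 5 tags (1.62 to 11.7). The counting interval of this ratio was 0.764 to 7.47, a wide range set by the few tags of 1 library on each day. Equal relative pileup would have given 6.15 tags in the Nanog library of day 8, 5.75 on day 10 and 9.95 on day 12. Such peaks would stand above 27.0%, 15.1% and 52.9% of the peaks of those libraries.

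Farther upstream, the intergenic element 14022 bp from Mir294 had the earliest NanogN70 peak of the upstream elements. NanogN70 had 10, 5, 8 and 12 tags on days 7, 8, 10 and 12, Nanog had no peak, and the ESC libraries had 51, 54 and 28. Its relative pileup stayed between 0.192 and 0.293 on those days, against 1.33 ± 0.325 (SD, n = 3) in ESCs. The day 7 summit lay 172 bp after the strongest ESC summit, and the NanogN70 summits of the later days 3 to 23 bp after it. On day 7, with equal medians, the 10 tags of NanogN70 would stand above 52.6% of the Nanog peaks. Equal relative pileup would have given 6.15, 6.57 and 7.02 tags in the Nanog libraries of days 8, 10 and 12, above 27.0%, 28.4% and 38.1% of their peaks.

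The element 19317 bp upstream had 6 tags (day 10) and 19 tags (day 12) with NanogN70, and 4 tags (day 12) with Nanog, the lowest pileup that library held, with a score of 52.7 next to the limit of 50. The ESC libraries had 43, 50 and 39, a relative pileup of 1.33 ± 0.016 (SD, n = 3). From the strongest ESC summit the NanogN70 summits lay 100 bp after (day 10) and 3 bp before (day 12), the Nanog summit 204 bp after, and the other ESC summits 70 bp after and 6 bp before. This was the only Mir294/Mir295 upstream element with a Nanog peak.

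The element 8458 bp upstream had 8 tags on both days 10 and 12 with NanogN70 and no Nanog peak, with 31, 37 and 28 tags in ESCs. Equal relative pileup would have given 6.57 tags in the Nanog library of day 10 and 4.68 on day 12. These would stand above 28.4% and 3.96% of the peaks, the latter close to the lowest pileup of 4. The element 6879 bp upstream, with 28, 36 and 27 tags in ESCs and a relative pileup of 0.918 ± 0.038 (SD, n = 3), had no peak on any day of either path. These neighbours, 1579 bp apart, had close ESC mean relative pileups, 0.969 and 0.918, but not scores, which were 638, 706 and 542 at the farther element and 196, 225 and 159 at the nearer. NanogN70 libraries had a peak at the farther element only. The sixth upstream element, 16489 bp away, had 13 tags in a single ESC library.

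In the ESCs pileup and score did not run together along this locus. The element 2910 bp upstream scored 258, 445 and 215 with 45, 49 and 41 tags, while that 19317 bp upstream scored 834, 1113 and 928 with 43, 50 and 39. At equal pileup a score limit thus removes the former sooner. The ESC peaks also differed in length, 428 to 442 bp at the former and 643 to 735 bp at the latter. The peak caller weighs each summit against its surroundings, which were not measured here, and the source of the difference in score was not tested.

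The element 841 bp downstream of Mir295 (chr7:3221053-3223562, Nlrp12 exon) is the one that lies within 2 kb of the Mir294 and Mir295 hairpins. By presence of a peak alone it went against the label of a pluripotency element. Its relative pileup was 0.962 ± 0.150 (SD, n = 3) in ESCs, 0.256 in MEFs and 0.158 to 0.417 in the time course libraries with a peak. It had a peak in MEFs (10 tags), on 7 Nanog days (all but day 12, 4 to 13 tags) and on 5 NanogN70 days (0, 1, 5, 8 and 10, 3 to 10 tags), as well as in the 3 ESC libraries (34, 30 and 30 tags). The peaks were not alike in length. In MEFs and on the time course the highest peak of a library was 107 to 222 bp long, and in ESCs 1612 to 2510 bp. Summit positions did not part the groups cleanly. Time course and MEF summits lay 375 to 497 bp beyond the strongest ESC summit, and that of ESC replicate 2 lay 359 bp beyond it. The day 0 libraries also had smaller peaks farther on, with summits 1047 and 1234 bp (Nanog, 5 tags each) and 1238 bp (NanogN70, 7 tags) beyond it, the longest of them 362 bp. The number of days within 2 kb of these hairpins therefore counts short peaks that MEFs have too.

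The other downstream elements were small. The ESC-only elements 16743 and 18363 bp downstream had 7 to 10 tags in 3 ESC libraries and 6 and 10 in 2, and the former also had 5 tags on NanogN70 day 5. The element 4359 bp downstream had peaks on Nanog days 3 and 8 and NanogN70 day 7, that 10936 bp downstream on NanogN70 day 0, and that 7584 bp downstream in 1 ESC library.

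**Figure D3:**
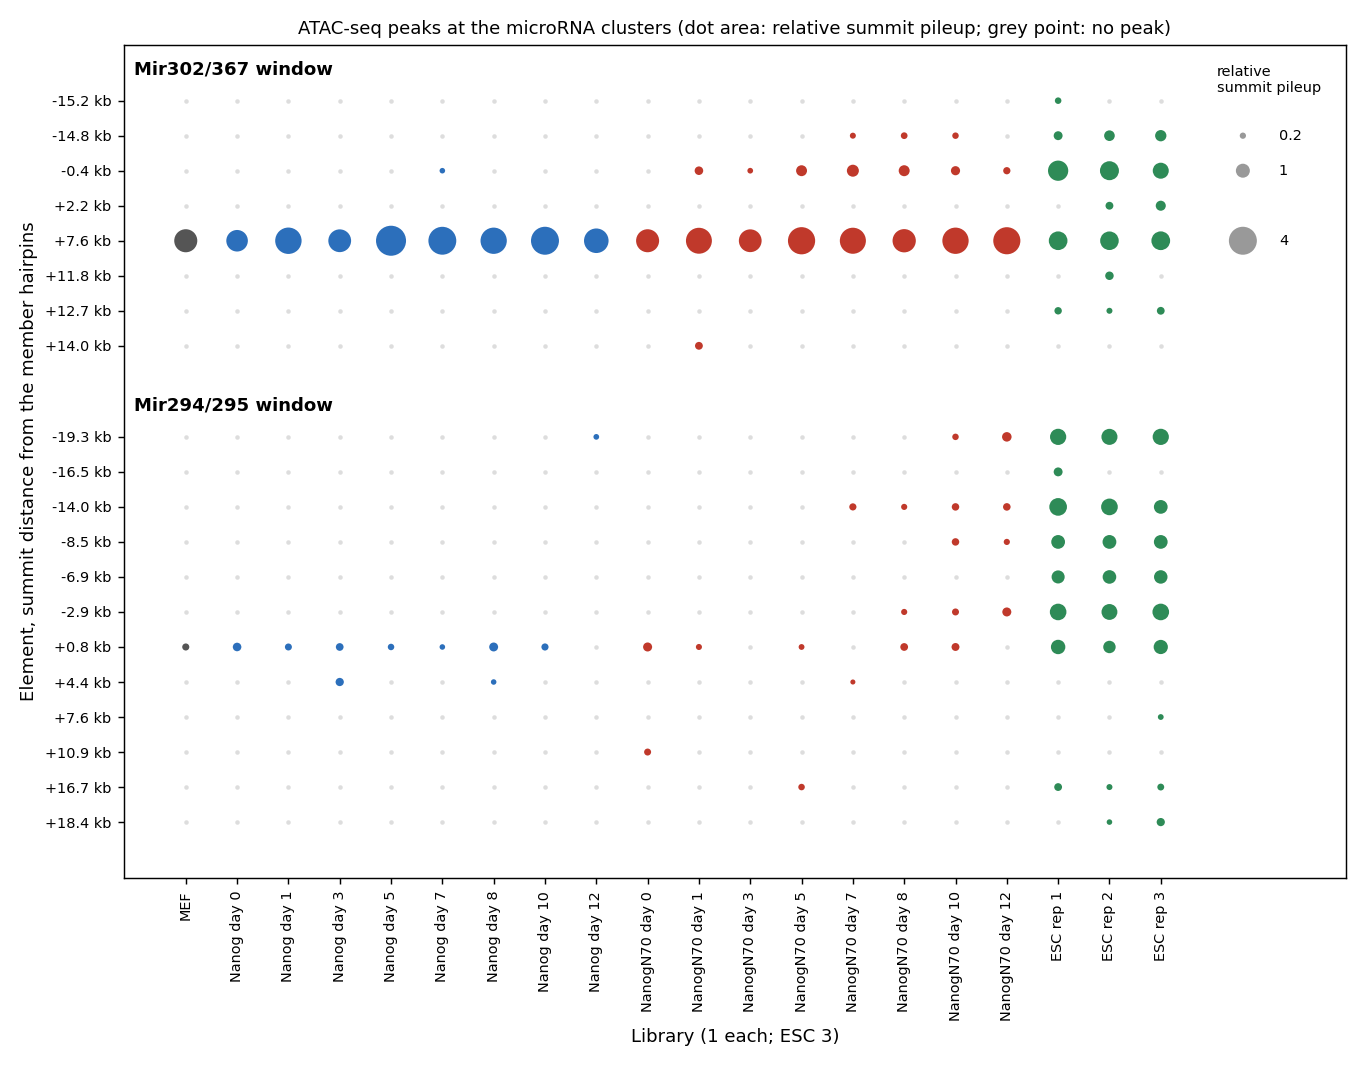
Peaks at each of the 20 elements (rows, by summit distance from the hairpins in kb) in each of the 20 libraries (columns), with dot area proportional to relative summit pileup and a grey point where no peak was called. The dot of the element nearest the Mir302 hairpins runs through all NanogN70 days after day 0, the upstream Mir294/Mir295 dots appear from NanogN70 day 7 on, besides 1 on Nanog day 12, and the host promoter is the only element with a dot in every library.

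Taking the 11 ESC-only elements together, 7 had a peak on more NanogN70 than Nanog days (2 in the Mir302 window, 5 in the Mir294/Mir295 window), 0 on more Nanog days and 4 on no day. Over all 55446 ESC-only regions the shares were 24.5%, 5.81% and 66.1%. Without day 3 the elements with more NanogN70 days were again 7, and 0 had more Nanog days, while the shares over all ESC-only regions were 20.5%, 6.23% and 69.5%. Strength in ESCs bears on this background. Of the 2132 ESC-only regions with an ESC mean relative pileup of at least 0.9, 67.4% had more NanogN70 days and 23.7% no day, and of the 6 elements that strong 5 had more NanogN70 days and 1 had none. Against regions of like strength the number of elements with more NanogN70 days was therefore near the background.

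**Figure D4:**
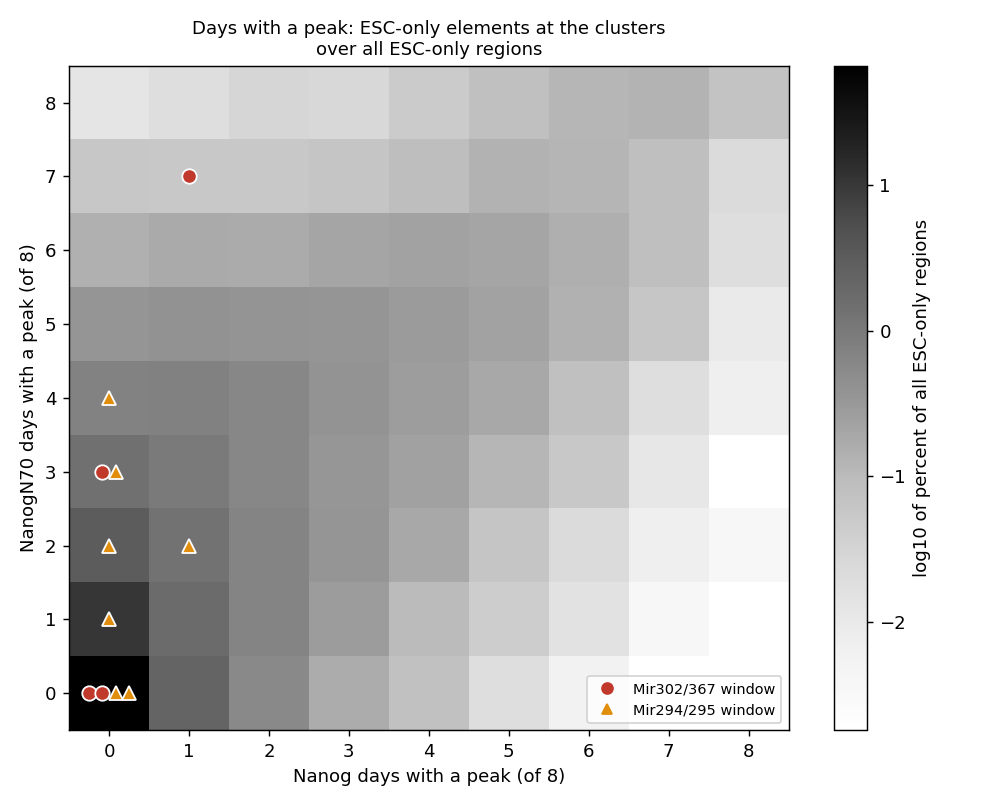
Number of days with a peak on the Nanog (x axis) and NanogN70 (y axis) paths for the 11 ESC-only elements (circles, Mir302/Mir367; triangles, Mir294/Mir295), over the share of all 55446 ESC-only regions in each cell (grey, log10 of percent; white, fewest or none). The Mir302 hairpin element, at 1 Nanog and 7 NanogN70 days, stands in a sparsely filled cell, and the other 10 elements have at most 1 Nanog and 4 NanogN70 days.

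By day, the early peaks at ESC-only elements of the Mir302 window came from its hairpin element alone. On days 0 to 5 the ESC-only elements had a NanogN70 peak in 3 of 16 element and day pairs in the Mir302 window and in 1 of 28 in the Mir294/Mir295 window. On days 7 to 12 they had 7 of 16 and 11 of 28. Over all ESC-only regions 7.31% of such NanogN70 pairs had a peak early and 11.8% late. Without day 3 the early NanogN70 numbers were 2 of 12 and 1 of 21. With Nanog the numbers were 0 of 16 and 0 of 28 early, and 1 of 16 and 1 of 28 late, where all ESC-only regions had 3.67% and 6.54%. A NanogN70 peak on day 10 or 12 without one on days 0 to 5 was found at 5 of the 11 elements, 4 of them upstream of Mir294, and at 8.96% of all ESC-only regions. A peak on day 12 with NanogN70 and not with Nanog was found at 4 of 11, and at 9.59% of all. On day 12 the NanogN70 pileup was 17 at the element 2910 bp upstream of Mir294 and 11 at the Mir302 hairpin element, where on day 8 it had been 5 and 16. The NanogN70 day 12 library was also the only time course library with peaks at Zfp42 and Dppa5a. The makeup of this library and the change of medium were not tested as sources of this order.

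The sequences at the summits had SOX words in common. Words were searched on both strands of 200 bases, as ATGCAAAT or ATGCTAAT for OCT, CATTGT or CTTTGT for SOX, GCCATTA for NANOG, AAGGTCA for ESRRB, GGGTGTG or GGGCGTG for KLF, TGANTCA for AP-1, GGAATG for TEAD and TTCCNGGAA for STAT3. A SOX word was present in 8 of the 11 ESC-only elements, and in 30.2% of ESC-only and 26.7% of all regions. The Mir302 hairpin element had 2, on opposite strands 21 bp before and 10 bp after its summit, and none of the other words. The Mir302 element 14848 bp upstream had 3. All 6 upstream Mir294/Mir295 elements had 1 SOX word, including the pair that had no peak on any day.

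OCT words were present in 1 of the 11 elements and in 4.83% of ESC-only regions. That element was the one 6879 bp upstream of Mir294, with ATGCAAAT 43 bp after its summit and a SOX word 26 bp before it, and neither path had a peak there. The element 2910 bp upstream of Mir294 had an ESRRB word (6.02% of ESC-only regions) 50 bp before its summit. No NANOG word was found in any of the 20 elements (1.94% of ESC-only regions). The AP-1 word, found in 17.3% of all and 6.19% of ESC-only regions, occurred only in the element 841 bp downstream of Mir295. These are matches of letters, not measured binding.

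The nearest patterns elsewhere were few. The presence or absence of peaks in all 20 libraries was identical to that of the Mir302 hairpin element at 3 other regions, in introns of Cdkal1, of Ppat and 2310040G07Rik, and of Btbd11, and 21 more differed in 1 library. Without day 3 these numbers were 4 and 50. Of those 21 the highest ESC scores were near Rell1, which lacked the Nanog day 7 peak, and Dram1, which lacked the NanogN70 day 1 peak.

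Among other microRNA genes, read as peaks within 2 kb of the hairpin, the 8 that share a seed with a member gave few differences. Mir291a and Mir292b, neighbours of Mir294, had peaks on NanogN70 days 8, 10 and 12 and on no Nanog day, through the element 2910 bp upstream. Mir292b shares the CUCAAAA of miR-294-5p. Mir92-1 of the Mir17 cluster had 6 NanogN70 and 4 Nanog days, and the other 5 (Mir25, Mir32, Mir363, Mir92-2 and Mir92b) had equal numbers. Of 1072 microRNA genes 116 were ESC-only, of which 52 had more NanogN70 days, 8 more Nanog days and 56 equal numbers, 48 of these with none. A difference of 6 or more days was found only at Mir302b, Mir302c, Mir302a, Mir302d and Mir367, which share a single element and so are 1 observation. Without day 3 the counts were 40, 11 and 65, and 0 genes differed by 6 days, with these 5 at the largest difference of 5.

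Of the 6 epithelial microRNA genes, Mir200c and Mir141 had a peak in MEFs, in all 3 ESC libraries and, of the time course, on NanogN70 day 12. Mir205 had a peak in all 3 ESC libraries, not in MEFs and on no day. Mir200b had a peak on Nanog day 5 alone, and Mir200a and Mir429 had none in any library. Of the 6 fibroblast microRNA genes 3 had more NanogN70 days, 2 more Nanog days and 1 the same, beside 234, 112 and 726 of all 1072 microRNA genes. They did not share a pattern in the end states. Mir199a-2 and Mir214 had a peak in MEFs and in no ESC library, Mir143 and Mir145a in all 3 ESC libraries and not in MEFs, and Mir21a and Mir31 in neither. Mir199a-2 alone of the 6 had a peak in all 16 time course libraries. The 7 genes of microRNA maturation (Drosha, Dgcr8, Xpo5, Dicer1, Tarbp2, Ago1 and Ago2) had a promoter peak in all 20 libraries, as did 53.7% of 21924 protein-coding genes. So did 6 of 7 described targets of the seed family (Cdkn1a, Rbl2, Lats2, Rhoc, Mbd2 and Nr2f2), and Tgfbr2, the TGF-beta receptor that restrains epithelial change, lacked a peak in 1 ESC library only. Where every library has a peak, its presence cannot show a difference between the paths.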

How the data were processed

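ATAC-seq was analysed from the peak and summit lists of 20 libraries. Per the study's methods, the authors trimmed reads with Trim Galore 0.6.4 and aligned them to mm10 with Bowtie2 2.4.5. They removed repetitive, low-quality (under 30) and mitochondrial reads with SAMtools 1.16.1. Peaks were called per library with MACS 1.4.2, set to keep duplicates. The score the authors deposited for each peak is -10 times log10 of the MACS p, and the signal the authors gave for a summit is coverage, counted in tags (pileup) without scaling to depth. The methods do not say whether the repetitive reads removed were duplicates. Any duplicates left can raise pileups, and depth is unknown. Here peaks overlapping by 1 bp were merged, the highest summit per element and library was kept, and pileups were divided by the library median over regions with a peak in all 20 libraries (Python 3.11.15, NumPy 2.4.6). Merging was tested on simulated peaks. Annotation was GENCODE M21 and sequence GRCm38.p6, with all 21 chromosomes matched to the files. The members, lists and words were chosen with earlier results of these data known. Every element within 20 kb was described. By rule, sequences were to be shown for the element nearest the hairpins and the strongest in ESCs of each window. Those in Nlrp12 and Larp7 exons were not printed. All comparisons are descriptive, since each day and path had 1 library. Alternatives were a minimum score of 100, equal peak numbers, other windows, summit clusters, leaving out day 3 or an ESC library and other bases.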

Additional observations from a re-analysis of the deposited data

How the results depend on the processing

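The counts near the Mir302 hairpins were the steadier ones. NanogN70 had 7 days with a peak within 2 kb as reported and 6 or 7 under every alternative. The single Nanog day became 0 when only the 44126 top-scoring peaks of each library were kept. Within 2 kb of Mir294 or Mir295 the counts rested on low peaks: 5 NanogN70 and 7 Nanog days became 2 and 2 at a minimum score of 100, 2 and 4 with equal peak numbers, and 0 and 0 within 1 kb. The 8 elements of the Mir302 window became 4 at a minimum score of 100, 3 with equal peak numbers and 3 within 10 kb, and the 12 of the Mir294/Mir295 window became 7 with equal peak numbers and 6 within 10 kb. In the latter window the 19 NanogN70 element and day pairs with a peak became 10, 11 and 11 under these 3 settings, and the 10 Nanog pairs became 2 at a minimum score of 100 and 5 with equal peak numbers. NanogN70 had more pairs than Nanog in both windows under each setting. The highest ESC relative pileup of a window, 1.78 (Larp7 and Zgrf1 promoter) and 1.37 (2910 bp upstream of Mir294), became 2.94 and 2.26 with a base of regions shared by MEFs and ESCs, whose median is lower by construction, and ranged from 1.77 to 1.79 and from 1.35 to 1.41 without 1 ESC library. With other bases, chosen after seeing the data, the Mir302 hairpin element on NanogN70 day 7 was 2.23 to 2.97 times that of day 12, and the element 2910 bp upstream of Mir294 on day 12 was 1.59 to 3.40 times that of day 8. Of 64 alternatives 45 stayed close to the reported value and 19 did not. Close means a count within 1.5 times the reported one, an ESC mean within 1 SD or a ratio within its counting interval. A reversal of direction was looked for only in the ratios between days, where none was found. Leaving out day 3 changed these day and pair counts by at most 2, from 19 to 17 NanogN70 pairs in the Mir302 window and from 10 to 8 Nanog pairs in the other. The counts of like regions and of ESC-only microRNA genes given above changed by more. No paired analysis was possible because the loci were chosen by their peaks on these same 8 days, so a test paired by day would use the values that chose them. The values of the paths were set side by side by day. With 1 library per day and path and unknown depth, a day without a peak cannot be told from a peak under the threshold.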

Other observations

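Beyond the windows, between 20 and 50 kb from the hairpins, 10 further ESC-only regions were found around Mir294 and Mir295 and 0 around the Mir302 cluster. Of the 10, 5 lay upstream, 21427 to 28277 bp from Mir294, with an ESC mean relative pileup of 0.392 to 0.894. A NanogN70 peak was present on at least 1 day at 4 of the 10 and a Nanog peak at 1, and over all ESC-only regions the shares were 30.8% and 17.3%. The region 21427 bp upstream (chr7:3198931-3199214) had the highest ESC value of the 10 and a peak on 1 NanogN70 day and no Nanog day.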
